A study of Mus musculus with 72 samples.

Results

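The gene set comprised 35 mouse genes of the peroxisome among the 20561 genes measured. It held 13 genes of peroxisome biogenesis, 2 transporters of the peroxisomal membrane and 20 enzymes of the peroxisomal matrix. Members were matched by gene symbol, and all 35 were found in the whole-gene, exonic and intronic expression tables. The levels come from liver and gastrocnemius (calf) muscle of male C57BL/6J mice, 8 weeks old, housed in 12 h of light and 12 h of dark. Fed mice ate normal chow freely, and fasted mice had no food for 24 h. Each tissue was sampled at 6 times of day, Zeitgeber time (ZT) 0, 4, 8, 12, 16 and 20 counted in hours from lights on, and each of the 24 groups so formed has 3 libraries. Of the 72 libraries, 18 stand for each feeding state of a tissue.

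Peroxisomes shorten very long-chain, branched and dicarboxylic fatty acids and bile acid precursors by beta-oxidation, and they break down hydrogen peroxide, urate and glycolate. Their matrix enzymes are made in the cytosol, bound by the import receptors PEX5 and PEX7, passed through a docking and translocation complex in the membrane and released inside, after which the receptor is ubiquitinated and pulled back out. PEX3, PEX16 and PEX19 assemble the membrane, and proteins of the PEX11 family elongate and divide the organelle. In rodent liver many of the oxidation genes are targets of the fatty acid receptor PPARα, which is active in fasting.

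Levels are in FPKM, which scales reads by transcript length and library size, so that levels of different genes can be set side by side. Changes are fasted minus fed on the scale of log2(FPKM + 0.5), averaged over the 6 times, with a standard error (SE), and they understate the change of genes near 0. They were tested with limma across all genes that reached 1 FPKM in 3 or more of the tissue's libraries, and a gene is called where the Benjamini-Hochberg adjusted p is under 0.05. Depth, estimated from the steps between low values, lay between 16.95 and 35.35 M reads, with 25.1 M in the median library. Nothing in the labels says whether libraries of a group came from separate cages or extractions, so the p-values measure the spread between these samples. In bulk tissue, fewer cells of a type and less RNA per cell cannot be told apart. The share of all genes whose fed and fasted libraries did not overlap was not counted, so overlap describes single genes only.

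Part of the libraries held transcripts of the other tissue. The summed level of 10 hepatocyte markers was 64.0 to 227 FPKM in the fed muscle libraries of ZT0 to ZT12, 12.3 to 100.3 FPKM in those of ZT16 and ZT20 and 4.71 to 30.8 FPKM in fasted muscle. The sum of 10 skeletal muscle markers was 56.0 to 183 FPKM in fed liver of ZT8 to ZT20, 3.00 to 4.23 FPKM in fed liver of ZT0 and ZT4, and up to 370.4 FPKM in fasted liver of ZT4. From the level of the albumin gene Alb, transcripts of liver would make up 90.1% of the fed muscle level of Uox, 107% of that of Hao1, 54.2% of that of Acaa1b, 39.5% of that of Acox2 and 4.09% of that of Decr2. For the other 30 members the same estimate stayed under 3% in both tissues. The first principal component separated fed from fasted libraries in liver and in muscle.

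In fasted liver the set split rather than moving as one. The enzyme Ehhadh and the division factor Pex11a rose the most in their classes, and the coenzyme A hydrolase Nudt7 fell further than any other member. All 35 members were tested in liver, of which 18 were higher in fasted mice, 14 were lower and 3 did not pass. Over all 10780 genes tested, 73.0% were called, 25.0% as higher and 48.0% as lower. The median change of the members was 0.27, against -0.13 for all genes tested. Among the 20 matrix enzymes 12 rose and 7 fell, with a median of 0.32, and among the 13 biogenesis genes 6 rose and 6 fell, with a median of 0.02. Median-of-ratios scaling moved the median of all genes to 0.04 and gave 21 members higher and 8 lower, beside 4254 and 3651 of all genes. Quantile normalisation gave 18 higher and 8 lower, beside 4011 and 3893 of all genes.

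**Figure D1:**
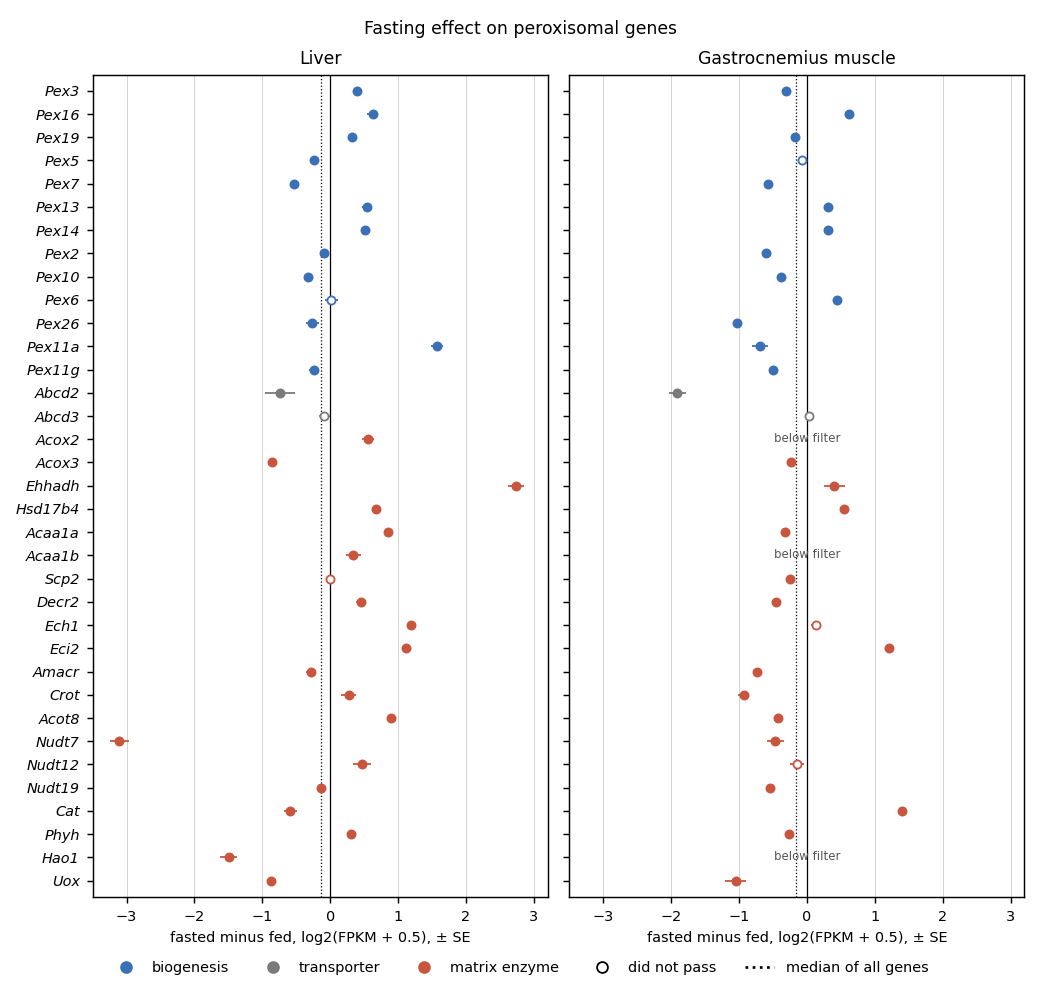
Change with fasting of each member, by role, in liver and in muscle, as log2(FPKM + 0.5), fasted minus fed, averaged over 6 times (points, with standard errors; 18 libraries per feeding state). Open symbols did not pass and the dotted line is the median of all genes. Members below the filter on low values are marked as such. In liver Ehhadh lies at 2.74 and Nudt7 at -3.11, while in muscle Cat lies at 1.40 and Abcd2 at -1.91.

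Ehhadh, the bifunctional enzyme that hydrates and then dehydrogenates acyl-CoA in beta-oxidation, stood at 63.8 FPKM in the lowest, 79.7 in the median and 100.3 in the highest fed liver library, and at 271.6, 540.0 and 1173 FPKM in fasted liver. The change was 2.74 ± 0.12 (SE; limma, adjusted p = 2.4e-19). Every fasted library lay above every fed one. Nudt7, which cleaves coenzyme A and its acyl esters, ranged from 530.4 through a median of 755.8 to 1074 FPKM in fed liver and from 54.9 through 91.4 to 199.7 FPKM in fasted liver. Its change was -3.11 ± 0.14 (SE; limma, adjusted p = 1.6e-19), and the groups did not overlap. The ratios of the mean levels were 7.16 for Ehhadh, fasted over fed, and 8.17 for Nudt7, fed over fasted.

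Pex11a, the family member whose rat homologue multiplies peroxisomes when overproduced, had 17.6, 24.6 and 33.4 FPKM as lowest, median and highest value in fed liver and 48.1, 74.7 and 118 FPKM in fasted liver. It changed by 1.57 ± 0.09 (SE; limma, adjusted p = 4.3e-16). All fasted libraries again lay above all fed ones. Its relative Pex11g went the other way, from a mean of 38.1 ± 5.71 to 32.5 ± 7.08 FPKM (SD, n = 18 libraries each; change -0.25), with overlapping groups.

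The promoters of 5 members are shown because these genes serve 1 organelle yet differed in direction or between tissues. Each line gives the 250 bases before the annotated start, on the gene's strand, from RefSeq (GRCm38.p6), with matches in capitals. These are GGGCGG or its complement (the GC box) in Ehhadh, Nudt7 and Cat, AGGTCA (the core hexamer of nuclear receptor sites) in Cat, and TGGACACAGGACA in Acox2, a loose match to a direct repeat of that hexamer spaced by 1 base, the form that PPARα binds with RXR. Ehhadh lies at chr16:21787835-21788084 on the minus strand, Nudt7 at chr8:114133324-114133573 on the plus strand, Pex11a at chr7:79743132-79743381 on the minus strand, Acox2 at chr14:8259020-8259269 on the minus strand and Cat at chr2:103485154-103485403 on the minus strand.
Ehhadh: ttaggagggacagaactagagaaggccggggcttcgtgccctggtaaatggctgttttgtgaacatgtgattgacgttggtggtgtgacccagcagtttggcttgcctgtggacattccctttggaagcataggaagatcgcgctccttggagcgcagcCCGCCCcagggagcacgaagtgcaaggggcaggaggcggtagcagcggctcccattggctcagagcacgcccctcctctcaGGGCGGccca
Nudt7: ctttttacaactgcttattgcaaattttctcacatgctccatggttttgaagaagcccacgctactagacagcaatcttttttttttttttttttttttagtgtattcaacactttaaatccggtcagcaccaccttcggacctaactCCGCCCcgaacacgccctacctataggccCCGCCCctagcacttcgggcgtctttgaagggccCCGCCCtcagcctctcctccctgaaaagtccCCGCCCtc
Pex11a: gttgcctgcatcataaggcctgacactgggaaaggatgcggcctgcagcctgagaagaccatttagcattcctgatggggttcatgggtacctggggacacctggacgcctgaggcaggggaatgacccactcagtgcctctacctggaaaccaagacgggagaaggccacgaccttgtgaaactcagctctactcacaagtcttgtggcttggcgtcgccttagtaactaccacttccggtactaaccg
Acox2: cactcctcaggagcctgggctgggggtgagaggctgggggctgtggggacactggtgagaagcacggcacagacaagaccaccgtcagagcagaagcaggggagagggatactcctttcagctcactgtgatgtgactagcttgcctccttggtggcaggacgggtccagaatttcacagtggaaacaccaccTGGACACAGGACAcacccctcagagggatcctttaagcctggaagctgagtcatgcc
Cat: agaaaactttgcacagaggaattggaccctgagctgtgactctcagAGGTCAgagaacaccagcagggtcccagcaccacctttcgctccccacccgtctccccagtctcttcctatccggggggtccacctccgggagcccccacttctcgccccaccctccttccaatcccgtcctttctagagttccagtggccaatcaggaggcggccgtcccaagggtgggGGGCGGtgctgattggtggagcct

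Nudt7 carried 4 GC boxes, all on the opposite strand, beginning 102, 73, 39 and 8 bases before the start. Ehhadh carried 2 of them, at 91 and 10 bases before the start, and Pex11a none within the printed bases. Windows of 300 bases (250 before to 50 after the start) were at hand for 29 members, searched on both strands. GGGCGG was found in 9 of 11 biogenesis genes and 11 of 17 matrix enzymes, against 38.2% of all 27025 genes with a window. TATAAA was found in 3 members, Pex14, Pex16 and Pex26, against 15.7% of all genes. The strict direct repeat, AGGTCA, any 1 base and AGGTCA again, was found in no member and in 0.0481% of genes. Sequence farther from the start was not searched, so sites there cannot be judged. The loose form, NGGNCA, any 1 base and AGGNCA, was found in Acox2 and Pex11g and in 0.929% of genes, and it overlaps AGGTCA where it holds that hexamer. AGGTCA alone was found in Cat, Pex11g, Phyh and Scp2 and in 18.1% of genes. The median GC content was 57.3% for biogenesis genes, 57.0% for matrix enzymes and 52.75% for all genes.

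Among liver biogenesis genes, the membrane assembly factors Pex3 (0.40), Pex16 (0.62) and Pex19 (0.33) all rose, as did the docking proteins Pex13 (0.55) and Pex14 (0.51). The import receptors Pex5 (-0.24) and Pex7 (-0.53) fell, as did Pex2 (-0.09) and Pex10 (-0.33) of the ubiquitin ligase that marks the receptor. Pex26, which holds the export ATPase at the membrane, fell (-0.26), while the ATPase gene Pex6 did not pass (0.02; limma, adjusted p = 0.89).

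Pex16 had 31.3, 37.8 and 61.3 FPKM as lowest, median and highest fed value and 45.6, 56.2 and 114 FPKM as fasted values (0.62 ± 0.08, SE; limma, adjusted p = 5.8e-08). Pex13 ranged from 9.01 through 12.2 to 15.2 FPKM in fed and from 12.4 through 17.5 to 24.0 FPKM in fasted liver (0.55 ± 0.07, SE; limma, adjusted p = 5.1e-08). Both overlapped between feeding states, and of the biogenesis genes in liver Pex14 and Pex11a did not, with no share over all genes at hand. Smaller falls depended on the scaling: relative to the median of all genes Pex2 changed by 0.04, and with median-of-ratios scaling it was higher by 0.10. Pex5, Pex11g and Pex26 no longer passed under median-of-ratios scaling or quantile normalisation, and Pex26 did not pass at ZT0 alone (-0.25; limma, adjusted p = 0.21). The Pex2 call was lost in 10 of the 36 fits that each left out 1 library.

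Of the 7 core enzymes of beta-oxidation, 5 rose in fasted liver, 1 fell and 1 did not pass. Besides Ehhadh, passing rises were those of the branched-chain acyl-CoA oxidase Acox2 (0.56), the other bifunctional enzyme Hsd17b4 (0.67) and the thiolases Acaa1a (0.85) and Acaa1b (0.34). At ZT0 alone Acaa1b showed -0.02. Acaa1a and Acaa1b are near-identical copies, so the split of reads between them is uncertain. Acox3, the pristanoyl-CoA oxidase, fell from 9.66 ± 1.12 to 5.11 ± 0.52 FPKM (SD, n = 18; change -0.86), with no overlap. Scp2, whose long form is the thiolase for branched chains, stood at 916 ± 141 and 906 ± 96.5 FPKM (SD, n = 18) and did not pass (-0.01; limma, adjusted p = 0.93), although it was higher by 0.20 under median-of-ratios scaling.

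Of the 4 auxiliary enzymes, which prepare unsaturated or methyl-branched chains, 3 rose. Ech1, a dienoyl-CoA isomerase of peroxisomes and mitochondria, went from 149 FPKM in the lowest, 191.6 in the median and 225 in the highest fed liver library to 344, 440.1 and 591 FPKM in fasted liver (1.19 ± 0.06, SE; limma, adjusted p = 1.8e-17). Eci2, an enoyl-CoA isomerase of both organelles, rose by 1.12, and the dienoyl-CoA reductase Decr2 by 0.46. Neither Ech1 nor Eci2 overlapped between feeding states. Amacr, the racemase for methyl-branched chains, was lower (-0.29), and did not pass under median-of-ratios scaling or quantile normalisation.

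The 5 genes that act on acyl-CoA, coenzyme A or, for Nudt12, NADH divided between 3 rises and 2 falls. Acot8, a thioesterase that frees the fatty acid, went from 8.90 ± 0.96 to 17.1 ± 2.39 FPKM (SD, n = 18; change 0.90) with no overlap. The NADH pyrophosphatase Nudt12 rose by 0.47, and Crot, which turns medium-chain acyl-CoA into carnitine esters for export, by 0.27. The Crot call did not hold without replicate 3 of fed ZT16 or of fasted ZT16 (limma, adjusted p up to 0.0548), and at ZT0 and ZT4 alone the change was -0.05. Nudt19, another coenzyme A hydrolase, was lower by a small amount (-0.14), lost its call in 19 of the 36 fits without 1 library and was higher by 0.06 under median-of-ratios scaling and by 0.01 under quantile normalisation. Relative to the median of all genes its change was -0.0034.

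Of the 4 other matrix oxidation genes, 3 fell in liver. Hao1, the glycolate oxidase, had 139, 170.7 and 195 FPKM as lowest, median and highest fed value and 23.3, 62.6 and 141 FPKM as fasted values (-1.49 ± 0.13, SE; limma, adjusted p = 2.7e-12). The highest fasted library overlapped the lowest fed one. Uox, the urate oxidase, fell from 1153 ± 351 to 628 ± 180 FPKM (SD, n = 18; change -0.87). Cat, the catalase, fell from a median of 1197 FPKM (range 894 to 1352) to 839.6 FPKM (range 358 to 1180; change -0.59). Phyh, which starts the breakdown of phytanic acid, rose by 0.30, and did not pass under quantile normalisation (0.07).

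Of the membrane transporters, Abcd2, which brings very long-chain acyl-CoA into the organelle, had 0.586, 2.50 and 7.14 FPKM as lowest, median and highest value in fed and 0.294, 1.30 and 5.03 FPKM in fasted liver (-0.74 ± 0.23, SE; limma, adjusted p = 0.0042). The groups overlapped widely, and at ZT0 and ZT4 alone its change was 0.02. Abcd3, the most abundant transporter here, which carries branched-chain and bile acid intermediates, had 177, 251 and 330 FPKM in fed and 164, 239 and 325 FPKM in fasted liver. It showed the largest change among liver members that did not pass (-0.09; limma, adjusted p = 0.31).

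Summed over the class, matrix enzymes came to 6819 ± 469 FPKM in fed and 6570 ± 614 FPKM in fasted liver (SD, n = 18). The biogenesis genes came to 318 ± 27.7 and 399 ± 38.5 FPKM. Phyh, Cat, Uox, Scp2 and Nudt7 had the highest fed levels among the matrix enzymes, and of these Phyh rose, Cat, Uox and Nudt7 fell and Scp2 did not pass. The summed level of 5 cholangiocyte markers was 30.1 to 109 FPKM in fed and 8.97 to 24.1 FPKM in fasted liver, that of 6 macrophage markers 33.5 to 147 and 20.1 to 66.4 FPKM, and that of 7 adipocyte markers 8.25 to 19.1 and 26.2 to 206 FPKM. In fasted liver 5 of 5 cholangiocyte, 5 of 6 macrophage, 3 of 5 endothelial and 4 of 6 stellate cell markers fell, while 2 of 6 stellate cell markers and 2 of 3 adipocyte markers tested rose. Of 10 hepatocyte markers 7 fell and 2 rose, with sums of 70610 to 95938 FPKM in fed and 59879 to 86279 FPKM in fasted liver. Their part in the members' changes was not tested.

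**Figure D2:**
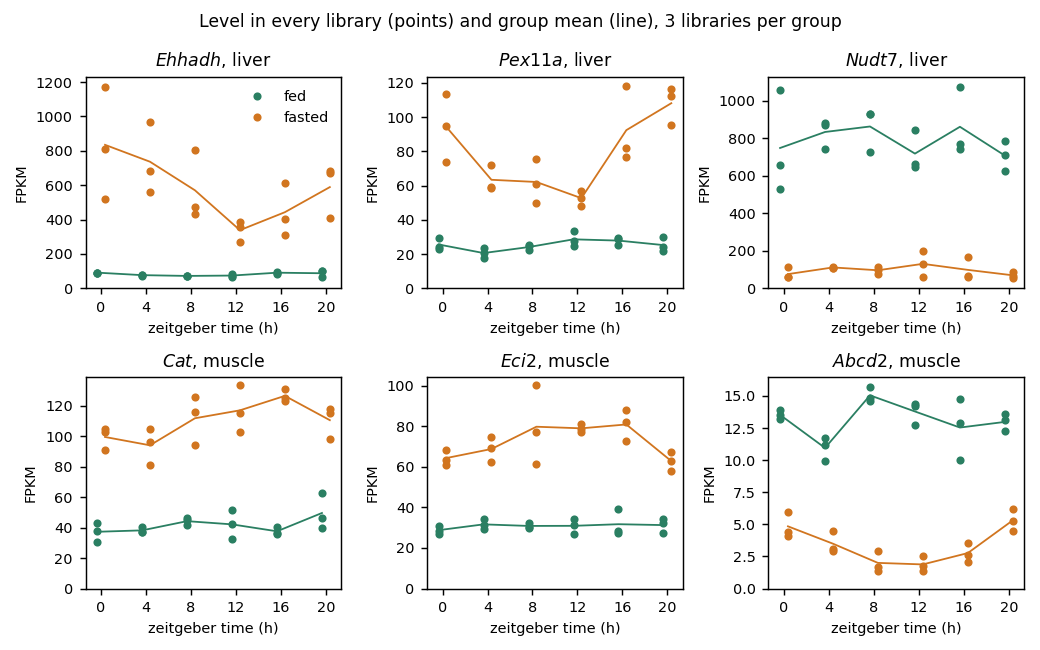
Level (FPKM) in every library by Zeitgeber time (h) of Ehhadh, Pex11a and Nudt7 in liver and of Cat, Eci2 and Abcd2 in muscle. Points are libraries, 3 per group, and lines join group means of fed (green) and fasted (orange) mice. Fed and fasted points do not overlap in any of the 6 panels, and fasted Ehhadh runs from a mean of 835 FPKM at ZT0 to 338 FPKM at ZT12.

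In fasted muscle catalase and the isomerase Eci2 rose the most, and the transporter Abcd2, the anchor protein Pex26 and the carnitine transferase Crot were among those that fell. Of the 32 members tested, 8 were higher, 20 were lower and 4 did not pass. Over all 11223 genes tested 82.1% were called, 30.3% as higher and 51.8% as lower. The median change was -0.31 for the 13 biogenesis genes and -0.27 for the 17 matrix enzymes tested, against -0.17 for all genes. Median-of-ratios scaling moved the median of all genes to 0.02 and gave 11 members higher and 14 lower, beside 4682 and 4292 of all genes. Quantile normalisation gave 8 and 20, beside 4257 and 4912 of all genes. At ZT16 and ZT20 alone 12 members were lower, with no share over all genes at hand. At these times most fed muscle libraries held fewer liver transcripts. Pex3, Pex11a, Pex19, Acox3, Scp2, Nudt7 and Phyh were among the genes that did not pass in that smaller set of libraries. Acox2, Acaa1b and Hao1 lay below the filter, with fed means of 0.099, 0.373 and 0.094 FPKM.

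Cat had 30.6, 40.5 and 62.8 FPKM as lowest, median and highest value in fed muscle and 81.5, 110 and 134 FPKM in fasted muscle (1.40 ± 0.07, SE; limma, adjusted p = 2.2e-19). Eci2 had 27.0, 30.6 and 39.4 FPKM in fed and 58.2, 71.0 and 100.4 FPKM in fasted muscle (1.21 ± 0.06, SE; limma, adjusted p = 1.9e-19). In both genes every fasted library lay above every fed one. Hsd17b4 rose by 0.54, also with no overlap between feeding states. Of the other enzymes of beta-oxidation, Acaa1a (-0.32), Scp2 (-0.25) and Acox3 (-0.23) fell, as did Decr2 (-0.46) and Amacr (-0.74), while Ech1 did not pass (0.13; limma, adjusted p = 0.13). Under median-of-ratios scaling Acaa1a, Scp2 and Acox3 no longer passed, and Ech1 did (0.34).

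Ehhadh had 2.08, 2.48 and 10.4 FPKM as lowest, median and highest value in fed and 2.45, 3.27 and 10.4 FPKM in fasted muscle (0.40 ± 0.15, SE; limma, adjusted p = 0.019). The groups overlapped, and the gene was called at no single time. The highest fed value was that of replicate 5 of ZT20, the library with the highest sum of 7 adipocyte markers (1198 FPKM, against a median of 322 in fed muscle) and with the highest Cat of the fed libraries. At ZT16 and ZT20 alone the change was 0.12 (limma, adjusted p = 0.72). Leaving out single libraries gave changes of 0.32 to 0.51.

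Among the genes that act on acyl-CoA, coenzyme A or, for Nudt12, NADH, 4 of 5 fell in muscle. Crot had 15.5, 19.2 and 20.3 FPKM as lowest, median and highest fed value and 5.63, 10.4 and 14.2 FPKM as fasted values (-0.94 ± 0.08, SE; limma, adjusted p = 3.1e-13), with no overlap. Nudt19 (-0.54), Nudt7 (-0.47) and Acot8 (-0.43) were lower too, of which Nudt7 showed -0.01 at ZT16 and ZT20 alone. Nudt12 showed the largest change that did not pass in muscle (-0.15; limma, adjusted p = 0.16), and it passed when replicate 5 of fed ZT16 was left out. Phyh was lower by 0.27 and did not pass under median-of-ratios scaling (-0.05).

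Uox was listed at 0 to 3.67 FPKM in fed muscle, with a median of 0.727, and at 0 to 0.117 FPKM in fasted muscle with a median of 0 (-1.05 ± 0.16, SE; limma, adjusted p = 2.1e-07). Its change was 0.00 at ZT16 and -0.05 at ZT20, the times at which most fed muscle libraries held the least liver transcripts. As given above, nearly all of its fed level matched what Alb would predict. Uox, too, met the filter only through fed libraries, as no fasted one reached 1 FPKM.

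In muscle biogenesis, the docking proteins Pex13 (0.31) and Pex14 (0.31), the ATPase Pex6 (0.44) and Pex16 rose. Pex16 had 6.27, 7.88 and 9.99 FPKM as lowest, median and highest fed value and 9.43, 12.9 and 16.5 FPKM as fasted values (0.62 ± 0.06, SE; limma, adjusted p = 1.3e-10). Pex26, the membrane anchor of PEX6, went the other way, with 1.15, 1.48 and 1.99 FPKM in fed and 0.231, 0.494 and 0.794 FPKM in fasted muscle (-1.03 ± 0.06, SE; limma, adjusted p = 4.3e-17). Pex26 did not overlap between feeding states and Pex16 did. No fasted library of Pex26 reached 1 FPKM, so the gene met the filter only through the fed libraries, where it was high.

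Pex11a had 4.18, 6.44 and 8.99 FPKM as lowest, median and highest fed value and 2.33, 3.96 and 7.01 FPKM as fasted values in muscle (-0.69 ± 0.11, SE; limma, adjusted p = 8.5e-07), and at ZT16 and ZT20 alone it did not pass (-0.24; limma, adjusted p = 0.18). Pex11g was lower by 0.50, so both members of the division family fell. The receptor Pex7 (-0.57) and the ligase genes Pex2 (-0.60) and Pex10 (-0.39) fell as well, Pex7 and Pex2 with no overlap. Pex3 (-0.31) and Pex19 (-0.18) were lower, and under median-of-ratios scaling Pex3 did not pass and Pex19 turned to 0.02. Pex5, the main import receptor, missed the threshold (-0.07; limma, adjusted p = 0.0503) and was higher by 0.13 under median-of-ratios scaling.

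Abcd2 fell more than any other member in muscle, with 9.95, 13.3 and 15.7 FPKM as lowest, median and highest fed value and 1.35, 3.00 and 6.18 FPKM as fasted values (-1.91 ± 0.12, SE; limma, adjusted p = 8.4e-16). Fed and fasted libraries did not overlap. Abcd3 had 22.3, 25.6 and 27.7 FPKM in fed and 21.3, 26.2 and 31.8 FPKM in fasted muscle (0.03; limma, adjusted p = 0.59), and passed under median-of-ratios scaling (0.23). Summed over the class, matrix enzymes came to 487 ± 48.8 FPKM in fed and 565 ± 57.9 FPKM in fasted muscle (SD, n = 18), and biogenesis genes to 116 ± 5.66 and 108 ± 8.20 FPKM. Within the enzyme sum mean Cat rose from 41.5 to 110 FPKM and mean Eci2 from 30.9 to 72.6 FPKM, while most matrix enzymes tested fell. The sum of 7 adipocyte markers was 184 to 1198 FPKM in fed and 165 to 860 FPKM in fasted muscle, and that of 10 muscle fibre markers was 93072 to 138046 and 80675 to 113008 FPKM. In fasted muscle 5 of 7 adipocyte, 5 of 6 stellate cell and fibroblast and 9 of 10 hepatocyte markers and 7 of 10 muscle fibre markers fell, as did 3 of 5 endothelial and 2 of 3 macrophage markers tested. The other way, 2 of 10 muscle fibre and 2 of 5 endothelial markers rose. Their part in the members' changes was not tested.

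In fed mice 32 of the 35 members stood higher in liver than in muscle and 3 stood lower, Pex10, Abcd2 and Nudt19. Over all 12584 genes tested for this difference, 91.6% were called, 41.7% as higher and 49.8% as lower in liver. The median difference of log2(FPKM + 0.5), liver minus muscle, was 3.12 for matrix enzymes and 1.52 for biogenesis genes. With quantile normalisation 5 members stood lower in liver, with Pex19 (-0.19) and Ech1 (-0.18) added. Matrix enzymes spanned from Uox (10.04) and Acaa1b (8.64) to Ech1 (0.42) and Nudt19 (-0.28). Biogenesis genes spanned from Pex11g (3.47) to Pex10 (-0.97). Abcd2, at 13.1 FPKM in fed muscle and 3.44 FPKM in fed liver, was the transporter with the higher level in muscle (-2.01), and Abcd3 the one with the higher level in liver (3.27).

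The response to fasting differed between the tissues in 25 of 32 members tested, 20 with a higher and 5 with a lower change in liver. Over all 9419 genes tested 70.3% were called, 31.8% with a higher and 38.5% with a lower change in liver. In 9 members the changes were called in opposite directions, a count with no share over all genes to set it against. Pex3, Pex19, Pex11a, Acaa1a, Decr2, Crot, Acot8 and Phyh rose in liver and fell in muscle, and Cat fell in liver and rose in muscle. The difference, liver minus muscle, was 2.27 ± 0.12 (SE) for Pex11a and -1.99 ± 0.10 (SE) for Cat (limma, adjusted p = 4.8e-23 and 7.1e-24). Of these 9, Pex19 did not pass in muscle under median-of-ratios scaling, where its change turned to 0.02, and neither did Pex3, Acaa1a and Phyh. The Crot change in liver was -0.05 at ZT0 and ZT4 alone.

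Another 17 members were called in the same direction in both tissues, again with no share over all genes at hand. Ehhadh rose in both, by 2.34 more in liver, and Nudt7 fell in both, by 2.64 more in liver. Abcd2 fell by 1.17 more in muscle, with a positive difference of liver minus muscle. For Pex16 the difference was 0.01 ± 0.10 (SE), for Eci2 -0.09 ± 0.07, for Pex7 0.04 ± 0.06, for Pex10 0.06 ± 0.07 and for Hsd17b4 0.13 ± 0.08, none of which passed. Uox (0.18) and Abcd3 (-0.11) did not pass either, although the Uox difference was 1.39 and passed with 0.1 added to the FPKM in place of 0.5. Hsd17b4 passed without replicate 1 of fasted liver at ZT4, and Uox without replicate 5 of fed muscle at ZT12. When liver was taken at ZT0 and muscle at ZT16 and ZT20, the count of higher differences was 13 in place of 20, and Pex7 (-0.44), Pex10 (-0.35), Pex11g (-0.03) and Amacr (-0.08) changed sign.

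**Figure D3:**
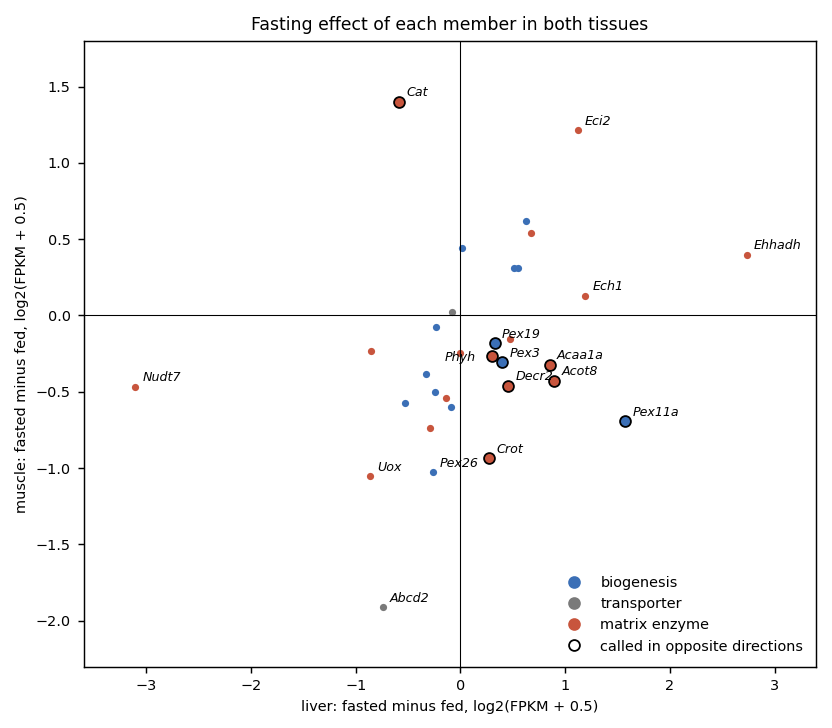
Change with fasting in liver (x axis) against that in muscle (y axis), log2(FPKM + 0.5), fasted minus fed, for the 32 members tested in both tissues; colours give the class. Black rims mark the 9 members called in opposite directions, with Pex11a (1.57 in liver, -0.69 in muscle) and Cat (-0.59 and 1.40) farthest out.

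At single times, 11 liver members were called in the same direction at all 6 times. Pex11a, Ehhadh, Hsd17b4, Acaa1a, Ech1, Eci2 and Acot8 were higher at each time, and Acox3, Nudt7, Hao1 and Uox lower. In muscle 11 were called at all 6 times as well, of which Hsd17b4, Eci2 and Cat were higher and Pex7, Pex2, Pex26, Abcd2, Decr2, Amacr, Crot and Nudt19 lower. Pex2 was called at no time in liver, and Ehhadh and Ech1 at none in muscle. Over all genes tested, 3.69% were higher at all 6 times in liver, 11.8% lower and 12.3% called at none. In muscle 9.93% were higher at all 6 times, 20.9% lower and 13.0% called at none.

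**Figure D4:**
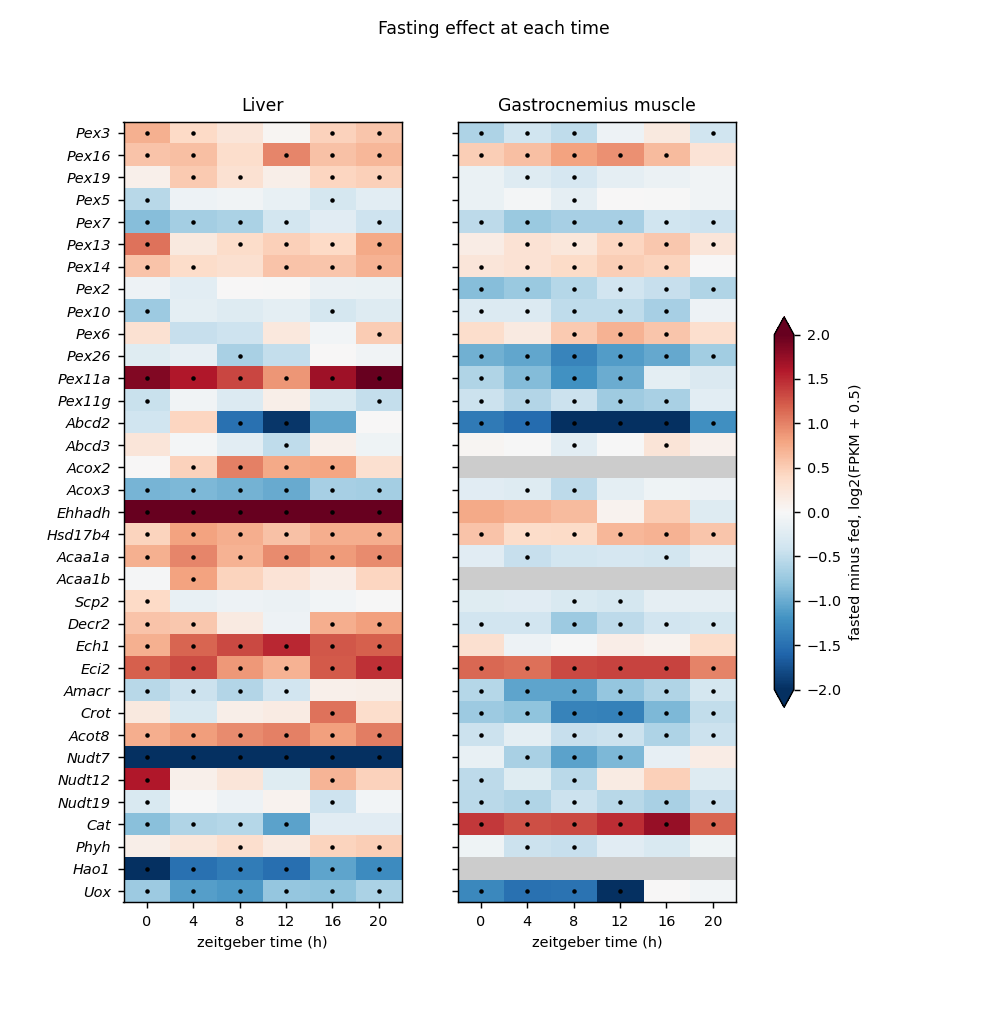
Change with fasting of each member at each of 6 times (columns, ZT in h), in liver and muscle, as log2(FPKM + 0.5), fasted minus fed (colour, cut at 2 in either direction; dots mark an adjusted p under 0.05; 3 libraries per group; grey rows lay below the filter). Rows of Ehhadh and Nudt7 keep their direction at all times in liver, and the Abcd2 row is deepest at ZT8 in muscle.

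The change differed between times for 13 liver members (40.7% of all genes) and for 7 in muscle (22.9%). At ZT0 and ZT4 alone it did so for 7 liver members, and at ZT16 and ZT20 alone for 2 in muscle. With a term for each replicate number at each time (the replicate block below), no liver member passed, and fewer did in muscle. Amacr in liver was lower by 0.56 at ZT0, 0.43 at ZT4, 0.59 at ZT8 and 0.38 at ZT12, while its change was 0.10 at ZT16 and 0.12 at ZT20 (interaction, limma, adjusted p = 0.00036). In fed liver it stood highest at ZT8, with 63.3 ± 4.71 FPKM, and lowest at ZT16, with 41.9 ± 1.91 FPKM (SD, n = 3). In fasted liver all 6 group means lay between 38.5 and 46.0 FPKM. Decr2 changed by 0.83 at ZT20 but by -0.09 at ZT12 (limma, adjusted p = 0.00053), and Nudt12 by 1.60 at ZT0 but by -0.25 at ZT12 (limma, adjusted p = 0.0016). Pex11a rose at every time in liver, from 0.88 at ZT12 to 2.09 at ZT20.

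A 24-h cosine was called in 16 members in fed liver (39.7% of all genes), in 13 in fasted liver (31.0%), and its difference between feeding states in 12 (32.4%). Amacr had an amplitude of 0.30 log2 units with a peak at 5.4 h in fed liver and of 0.07 in fasted liver, where the cosine did not pass (limma, adjusted p = 0.52). The difference passed (limma, adjusted p = 0.0013). Decr2 peaked at 8.4 h in fed and 22.5 h in fasted liver (difference, limma, adjusted p = 0.0020), and Pex3 at 7.4 h and 1.5 h (difference, limma, adjusted p = 0.0023). Uox passed in both states, with peaks at 10.9 h and 12.6 h, and its difference did not pass.

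In fed muscle 1 member passed the cosine test, Uox (4.46% of all genes passed), whose fed level was described above. In fasted muscle 21 passed (47.4%), and the difference passed in 13 (32.6%). Abcd2 had an amplitude of 0.07 in fed muscle (limma, adjusted p = 0.97) and of 0.71 in fasted muscle, with a peak at 22.5 h (limma, adjusted p = 3.2e-08). The difference passed (limma, adjusted p = 9.2e-06). Its fasted group means fell from 5.31 ± 0.85 FPKM at ZT20 to 1.88 ± 0.61 FPKM at ZT12 (SD, n = 3), while fed means lay between 10.95 and 15.0 FPKM. Crot had an amplitude of 0.42 and a peak at 22.4 h in fasted muscle, and Amacr of 0.30 with a peak at 19.5 h, and their differences from fed passed (limma, adjusted p = 0.00025 and 0.0013). The fasting change itself differed between times for Abcd2, from -1.22 at ZT20 to -2.68 at ZT8 (limma, adjusted p = 0.00017), for Crot (limma, adjusted p = 0.0053) and for Uox (limma, adjusted p = 2.1e-05).

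Signal from introns is taken here to stand for RNA not yet spliced, and it is scaled to its own total in each library. As the libraries keep no strand, it can also hold reads of overlapping genes. In liver 33 members were tested for it, 16 were higher and 10 lower (59.7% of all genes called, 18.6% as higher and 41.1% as lower). With median-of-ratios scaling or quantile normalisation 4 were lower in liver introns. Ehhadh changed by 2.78 in exons and 2.76 in introns, and Nudt7 by -3.06 and -3.24. The exonic minus intronic difference was called in 10 of 33 liver members, 4 higher and 6 lower (38.8% of all genes, 23.9% as higher and 14.8% as lower), and at ZT0 alone 10 were lower. With the replicate block fewer members passed in either direction. Pex16 rose by 0.67 in exons and changed by -0.03 in introns, a difference of 0.70 ± 0.13 (SE; limma, adjusted p = 0.00012). Its mean intronic signal was 18.9 ± 7.35 in fed and 17.9 ± 3.98 FPKM in fasted liver (SD, n = 18). Acaa1b showed 0.38 in exons and -0.92 in introns (difference 1.30 ± 0.22, SE; limma, adjusted p = 3.3e-05), with the limit on its near-identical copy given above. Amacr showed -0.25 in exons and 0.15 in introns (difference -0.40 ± 0.08, SE; limma, adjusted p = 0.0004), and did not pass at ZT0 and ZT4 alone.

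In muscle 30 members were tested in introns, 5 higher and 16 lower (69.7% of all genes called, 26.8% as higher and 42.9% as lower). With median-of-ratios scaling 8 were higher, and at ZT16 and ZT20 alone 6 were lower. The exonic minus intronic difference was called in 14 of 29, 6 higher and 8 lower (52.5% of all genes, 26.9% as higher and 25.7% as lower), and at ZT16 and ZT20 alone in 3 higher and 2 lower. With the replicate block fewer differences were lower. Pex16 again rose in exons (0.62) and not in introns (-0.16), a difference of 0.78 ± 0.10 (SE; limma, adjusted p = 1.3e-07). Eci2 rose by 1.18 in exons and 1.86 in introns (-0.68 ± 0.09, SE; limma, adjusted p = 1.3e-07). Abcd2 fell by 1.97 in exons and 0.90 in introns (-1.06 ± 0.12, SE; limma, adjusted p = 4.2e-09). Its intronic level of 0.855 ± 0.281 FPKM in fed and 0.215 ± 0.091 FPKM in fasted muscle lies near the added 0.5, and with 0.1 added instead the difference was -0.49. Only fed libraries reached 1 FPKM in Abcd2 introns. Cat rose by 1.38 in exons and 1.48 in introns, a difference that did not pass (-0.10; limma, adjusted p = 0.44).

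**Figure D5:**
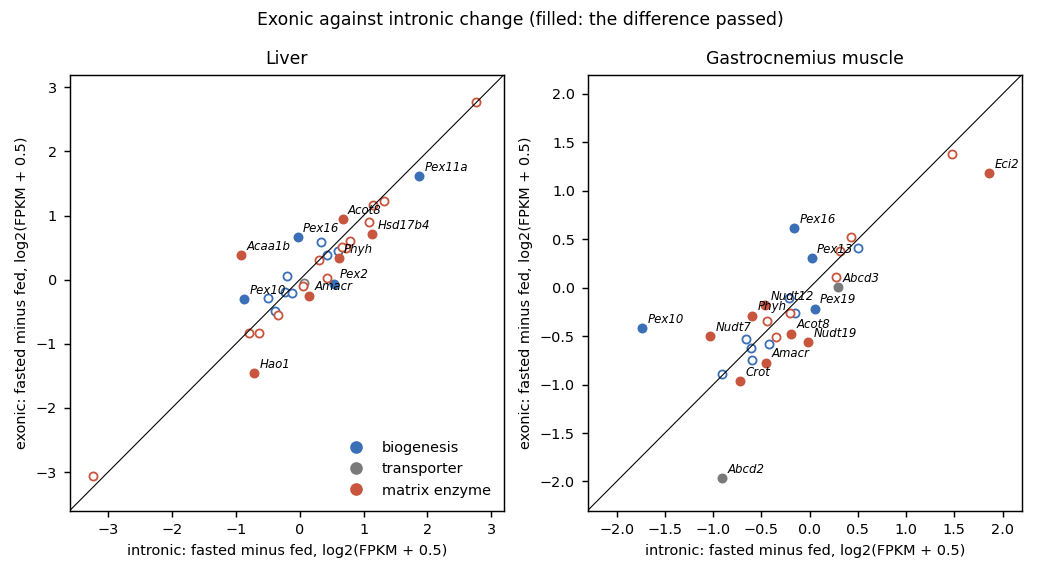
Change with fasting in intronic signal (x axis) against that in exonic signal (y axis), log2(FPKM + 0.5), fasted minus fed, in liver and muscle, for members tested in both; colours give the class and filled points passed the test of the difference. Ehhadh (2.76, 2.78) and Nudt7 (-3.24, -3.06) lie close to the diagonal in liver, and Pex16 lies above it in both tissues.

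Other genes of the organelle and of fatty acid oxidation were counted in lists set up beside the members. Of 20 other enzymes grouped as peroxisomal and tested in liver 9 rose and 8 fell, and of 14 in muscle 4 rose and 8 fell. Of 14 genes of mitochondrial beta-oxidation, 9 rose and 2 fell in liver, with Acadm (1.23), the medium-chain dehydrogenase, and Acadl (1.02) as examples, while in muscle 6 rose and 6 fell. Among 7 PPAR and RXR genes and coactivators, 3 rose in liver, Ppargc1a (2.10), Ppargc1b (0.84) and Rxrb (0.57), and Pparg (-0.98) and Ppard fell. In muscle 4 of the 7 rose, Ppard (0.97), Rxrb (0.67), Ppara (0.48) and Rxra (0.17), and Ppargc1b (-1.83) fell. Of 12 other membrane and proteolysis genes, 4 rose and 6 fell in liver, and 3 rose and 7 fell in muscle.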

How the data were processed

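Per the labels' protocols, libraries of total RNA were made with the TruSeq RNA v2 kit, which keeps no strand, so overlapping genes cannot be told apart. The authors deposited FPKM values per gene in 3 tables (whole gene, exons, introns), each scaled to its own total, so changes in introns are relative to the intronic total. The submitters' processing notes name mm10 and CASAVA 1.8.2, while the aligner is not given in the sources used here, nor are the counter and annotation. The unit was read from the values, which do not show whether reads or fragments were counted. Of the low values 51.0% came within 0.1 of a whole read, so reads were not recovered and no count test was run.

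All 35 members, the gene lists and the tests were chosen with earlier results of these data known. limma 3.58.1 (R 4.3.3, trend, two-sided) was run on log2(FPKM + 0.5), on all genes reaching 1 FPKM in 3 libraries of the tissue. The p-values were Benjamini-Hochberg adjusted over all of them. Fasting effects average 6 times, and they and the exonic minus intronic effects come from a fit with a level per time and a fasting term. Single-time, interaction and liver minus muscle effects come from a fit with a mean per group. The 24-h cosine fit holds a mean, a cosine and a sine per feeding state. The procedure was checked on simulated data. Alternatives were other pseudocounts, no filter, median-of-ratios scaling, quantile normalisation, a replicate block, removal of a length trend, fewer times, and leaving out each library. The times kept were ZT0, or ZT0 and ZT4, in liver and ZT16 and ZT20 in muscle. At these times most fed libraries held less of the other tissue's transcripts. Fasted liver of ZT4 still held up to 370.4 FPKM of muscle markers, and fed muscle of ZT20 up to 100.3 FPKM of hepatocyte markers. Lowest, median and highest values are given for the matrix enzymes and biogenesis genes with the largest passing changes and for both transporters. The largest change that did not pass is named in each tissue, and most other members are given by their change. Promoter windows were taken from RefSeq (GRCm38.p6) and searched on both strands with Python 3.11.15. No pair of libraries was identical.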

Additional observations from a re-analysis of the deposited data

Results flagged for a closer look

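The fasting effect differed between liver and muscle in 25 members, by a test of the difference itself (limma, adjusted over all genes). The following values are differences of log2 changes, liver minus muscle. Among biogenesis genes the difference was 2.27 for Pex11a, 0.76 for Pex26, 0.71 for Pex3, 0.51 for Pex19, 0.51 for Pex2, 0.25 for Pex11g, 0.23 for Pex13, 0.20 for Pex14, -0.16 for Pex5 and -0.42 for Pex6. For the transporter Abcd2 it was 1.17. Among enzymes of beta-oxidation it was 2.34 for Ehhadh, 1.17 for Acaa1a, 1.06 for Ech1, 0.92 for Decr2, 0.45 for Amacr, 0.24 for Scp2 and -0.62 for Acox3. Among the other matrix enzymes it was 1.33 for Acot8, 1.21 for Crot, 0.63 for Nudt12, 0.56 for Phyh, 0.40 for Nudt19, -1.99 for Cat and -2.64 for Nudt7.

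The fasting effect differed between the 6 times in liver for Amacr, Decr2 and Nudt12 (limma interaction, adjusted p = 0.000356, 0.000531 and 0.00162), although none of them passed with the replicate block. In muscle it did so for Uox, Abcd2 and Crot (limma interaction, adjusted p = 2.06e-05, 0.000170 and 0.00527), of which Uox is the gene whose fed muscle level matched the liver transcripts in those libraries. The 24-h cosine differed between fed and fasted liver for Amacr, Decr2 and Pex3 (limma, adjusted p = 0.00132, 0.00202 and 0.00234). It differed between fed and fasted muscle for Abcd2, Crot and Amacr (limma, adjusted p = 9.19e-06, 0.000254 and 0.00128).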

How the results depend on the processing

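Ehhadh, Nudt7, Pex11a, Ech1, Eci2, Acot8 and Acox3 in liver and Cat, Eci2, Crot, Abcd2 and Pex26 in muscle kept the direction of their whole-gene fasting effect under every alternative run. Counts that moved by over 1.5 times are given with the alternative, most of them with no share over all genes at hand. With median-of-ratios scaling 8 members were lower in liver, 4 lower in liver introns and 8 higher in muscle introns, and muscle calls at single times were 56 higher and 55 lower. With quantile normalisation 8 members were lower in liver, 4 lower in liver introns and 5 lower in liver than in muscle when fed. Without the filter 2 members passed the cosine in fed muscle. No label says whether replicate numbers pair libraries. Deviations of same-numbered fed and fasted libraries correlated at -0.12 to 0.31 in liver and -0.15 to 0.46 in muscle. Those of liver and muscle libraries correlated at -0.28 to 0.22, with 7 of 19 pairs over 0.1. Weak correlation cannot exclude that a mouse gave both tissues, and the tissue tests treat all libraries as separate. With the replicate block the interaction passed in 0 liver members, so in none of Amacr, Decr2 and Nudt12, and in 3 muscle members, 5 were lower in liver introns, the exonic minus intronic difference passed in 2 higher and 1 lower in liver and 4 lower in muscle, and the tissue difference in 3 lower. At ZT0 and ZT4 alone the liver interaction passed in 7, and at ZT0 alone 10 exonic minus intronic differences were lower. At ZT16 and ZT20 alone 12 members were lower in muscle, 6 lower in muscle introns, the interaction passed in 2, and the exonic minus intronic difference in 3 higher and 2 lower. With liver at ZT0 and muscle at ZT16 and ZT20 the tissue difference passed in 13 higher. These fits by time hold fewer libraries.

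Reversed values were as follows. Median-of-ratios scaling gave Pex2 0.10, Scp2 0.20 and Nudt19 0.060 in liver, Pex19 0.025 and Pex5 0.13 in muscle, and in muscle at single times Pex19 0.18, Pex10 0.014 and Pex5 0.17 (ZT0), Pex5 0.16 (ZT4), and Abcd3 0.038 and Pex5 0.056 (ZT8). Quantile normalisation gave Pex2 0.063 and Nudt19 0.013 in liver, Decr2 0.0066 in muscle at ZT0, and fed levels of Pex19 and Ech1 lower in liver by -0.19 and -0.18. ZT0 and ZT4 alone gave Crot -0.051 and Abcd2 0.018 in liver, Hao1 0.056 and Pex5 0.035 in introns, and exonic minus intronic Pex11a 0.11 and Acaa1a 0.74. ZT0 alone gave Scp2 0.40 and Acaa1b -0.024, Cat 0.071 and Pex5 0.26 in introns, and exonic minus intronic Pex5 -0.68 and Ehhadh -0.80. ZT16 and ZT20 alone gave exonic minus intronic Pex13 -0.037 in muscle. Liver at ZT0 against muscle at ZT16 and ZT20 gave differences of Pex10 -0.35, Pex11g -0.026, Pex7 -0.44 and Amacr -0.080. The cause was not tested.

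Leaving out 1 library at a time gave 17 to 18 members higher and 12 to 14 lower in liver and 8 to 9 higher and 20 to 22 lower in muscle. In liver the calls of Crot, Nudt19 and Pex2 could be lost this way. In muscle Ech1, Nudt12 and Pex5 could be gained, the first 2 without replicate 5 of fed ZT16. Genes near 0, such as Uox and Abcd2 introns in muscle, are limited by depth and by the pseudocount, and the Uox tissue difference was 1.39 with a pseudocount of 0.1.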

Other observations

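The lists beside the members held further genes grouped as peroxisomal, whose place in the cell was not examined here. In fasted liver Crat, the carnitine acetyltransferase, changed by 1.93, Slc27a2, a very long-chain acyl-CoA synthetase, by 1.27, Ephx2, the soluble epoxide hydrolase, by 0.87, and Pxmp4, a membrane protein, by 0.73. Slc25a17, which carries coenzyme A and nucleotides across the membrane, changed by -0.88 in liver and by 0.39 in muscle, and Paox, a polyamine oxidase, by -1.52 in liver. In fasted muscle Xdh, the xanthine dehydrogenase that makes urate, changed by 1.34, Mlycd, the malonyl-CoA decarboxylase, by 1.08, and Pecr, the enoyl-CoA reductase, by -0.73. All of these passed (limma, adjusted over all genes). Of the ether lipid genes, 2 of 3 tested fell in muscle, Gnpat (-0.36) and Far1 (-0.46), and none of 2 passed in liver.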
